A study of Mus musculus with 4 samples.

Results

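The genes described here are interferon-stimulated genes, which cells switch on after an interferon signal, measured in the mammary gland of mice that carry the Δ16HER2 transgene. They were taken from a list of 45 genes of the type I and type II interferon response and matched to array probes through mouse RefSeq accessions. Of the 45, 42 had a probe, out of 18952 named genes on the array. Mx1, Mx2 and Dtx3l had no matched probe and are not analysed here. Each gene was represented by the probe with the highest mean over the 4 arrays. Of the 42 genes, 41 passed the filter for testing, which asked for a signal well above background on both samples of a genotype, and 40 of them were well above background on all 4 arrays.

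Total RNA came from mammary glands of 13-week-old female mice before neoplasia. All carried Δ16HER2, a splice variant of the receptor HER2, and the promoter that drives it is not given in the sources used here. Samples WT 1 and WT 2 were wild type for stathmin, and samples knockout 1 and knockout 2 were labelled STM KO. Each was hybridised alone to a one-colour Agilent array. The slide held all 4 samples and was scanned once. The wild-type samples had its first positions, and the part of position in any genotype difference cannot be told apart. The labels' description field names another kind of cell and was not used. The labels do not say that the samples of a genotype came from separate animals, so the p-values measure only the spread between these samples, which may be technical. The comparison asks how the gland of Δ16HER2 mice differs with and without stathmin, and the array pairs of each genotype were also compared with each other.

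Type I interferons bind a receptor made of Ifnar1 and Ifnar2 on nearly all cells and act through a complex that holds Stat2 and Irf9. That complex binds a DNA element called the interferon-stimulated response element (ISRE) and turns on antiviral genes. Type II interferon, made mainly by T and natural killer cells, acts on a gamma-activated sequence (GAS), with antigen processing genes and guanylate-binding proteins among its best-known targets.

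The arrays differed in brightness, with a 75th percentile of signal from 144 (WT 2) to 291 (knockout 1), and 54.0% to 65.7% of probe spots were well above background. Pearson correlations between arrays ran from 0.967 to 0.979 across all probes. The genotypes overlapped at the targeted gene, Stmn1. Its brighter probe gave signals of 9222 and 1740 in the wild type and 6865 and 1621 in the knockout, a difference of -0.64 ± 0.76 on the log2 scale (limma, adjusted p = 0.94). Its dimmer probe read 87.6 on WT 1 and 13.8, 5.57 and 4.84 on the other arrays, none of these well above background. Where the probes lie relative to the deletion is not given in the sources used here, so the libraries are called by their labels, on which every direction below rests. Markers of mammary tissue were present, with 9 of 9 luminal epithelial and 7 of 7 adipocyte markers well above background on every array. Knockout 2 stood apart in lymphocyte and lymph node markers. Its summed level was 37.4 times that of knockout 1 for B cell markers and 63.3 times for markers of lymph node stroma and homing. WT 2 stood apart in the genes described here.

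Promoter sequences are shown for 6 of the genes because the ISRE is the element through which type I interferon acts and these 6 span the range of differences between WT 1 and WT 2 described below. The windows come from RefSeq (GRCm38.p6) and are written 5′ to 3′ along the gene's strand, with capitals for matches to the ISRE core on either strand (GAAA, any 2 bases, GAAA, or TTTC, any 2 bases, TTTC on the other). The Ifit3 window (chr19:34583359-34583429, plus strand) and the Ifit1 window (chr19:34640769-34640829, plus strand) each held 2 matches. The Isg15 window (chr4:156200858-156200918, minus strand) held 3 overlapping matches and the Bst2 window (chr8:71537567-71537622, minus strand) held 2. The Cxcl10 window (chr5:92349069-92349119, minus strand) held 1, and the Psmb9 window (chr17:34187380-34187450, minus strand) held none.
Ifit3: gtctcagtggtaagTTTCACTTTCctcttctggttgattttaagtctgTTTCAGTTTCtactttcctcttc
Ifit1: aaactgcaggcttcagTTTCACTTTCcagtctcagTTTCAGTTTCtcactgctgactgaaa
Isg15: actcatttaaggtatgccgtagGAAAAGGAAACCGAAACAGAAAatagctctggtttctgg
Bst2: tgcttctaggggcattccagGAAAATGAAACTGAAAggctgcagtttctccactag
Cxcl10: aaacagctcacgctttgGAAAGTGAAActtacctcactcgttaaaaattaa
Psmb9: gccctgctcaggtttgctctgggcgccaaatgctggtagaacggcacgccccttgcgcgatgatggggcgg

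The promoter table held 33 of the genes, and the window searched ran from 250 bases before to 50 bases after the start site. An ISRE core was found in 17 of the 33 (51.5%), against 3.99% of 27025 genes in the table. The GAS core (TTC, any 3 bases, GAA), which reads the same on both strands, was found in 7 of the 33 (21.2%), against 9.55%. A GAS and an ISRE match can overlap, as they do in Bst2. These matches are a description of letters and not of bound sites.

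WT 2 carried higher levels of nearly all of these genes than WT 1. The median absolute difference between the wild-type arrays was 1.22 on the log2 scale, against 0.36 between the genotypes and 0.28 between the knockout arrays. The genotype value compares means of 2 arrays and the others 1 array with 1, so it is not a like measure. Over all tested genes the wild-type arrays differed by 0.26. Of the 41 tested genes, 40 read higher on WT 2 than on WT 1, where 51.2% of the 13204 tested genes did so, and 26 of 41 (63.4%) were at least 2-fold higher on WT 2, against 3.08% of tested genes. At least 4-fold higher on WT 2 were 9 genes, against 0.515%. None of the 41 was at least 2-fold higher on WT 1 (3.84% of tested genes). The signed median over the 41 was 2.32-fold higher on WT 2, against 1.01-fold over all tested genes. With 1 array on each side there is no test of these values.

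**Figure D1:**
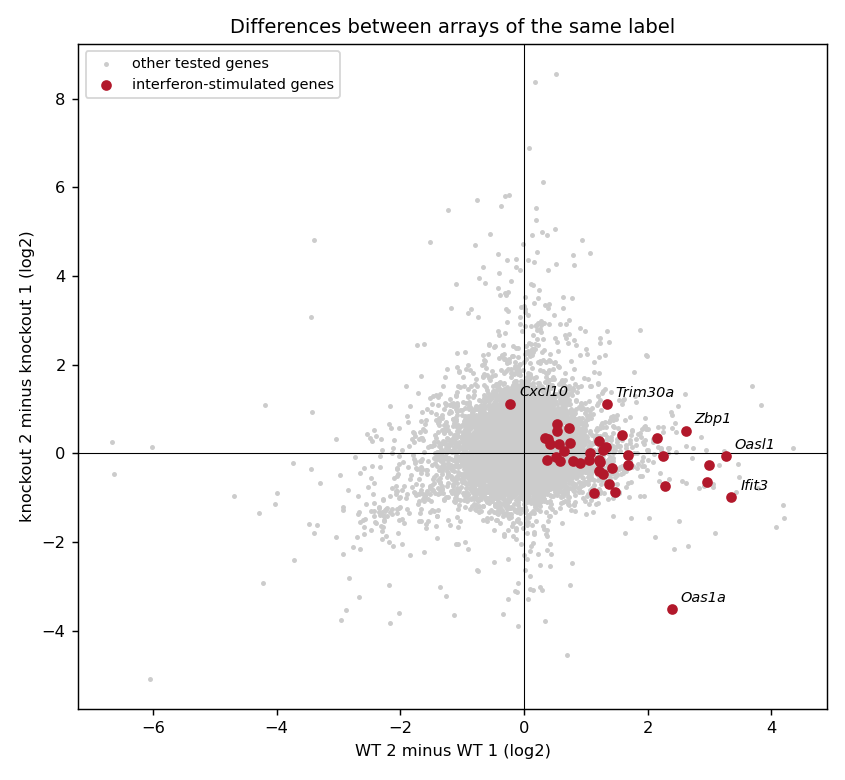
Differences between arrays of the same genotype on the log2 scale, with WT 2 minus WT 1 on the horizontal axis and knockout 2 minus knockout 1 on the vertical axis. Each point is a tested gene, and the 41 interferon-stimulated genes (red) lie to the right of 0 with Cxcl10 as the exception, while they spread around 0 on the vertical axis apart from Oas1a.

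The levels below are log2 of the processed signal minus the array's 75th percentile, always in the order WT 1, WT 2, knockout 1 and knockout 2, and they are not comparable between genes. The IFIT proteins bind foreign RNA and block its translation. Ifit3 read -0.80, 2.55, 0.41 and -0.58, a 10.2-fold difference between WT 2 and WT 1. Ifit1 read -3.17, -0.22, -2.28 and -2.93, with WT 2 7.75-fold above WT 1. For Ifit2 the levels were -2.42, -0.74, -2.09 and -2.34. In all 3 genes WT 2 was the highest array and WT 1 the lowest, with the knockout arrays between. A second Ifit2 probe was also highest on WT 2, but neither knockout array read well above background. By its own readings the knockout mean was 2.75-fold lower (KO minus WT -1.46 ± 0.50, limma adjusted p = 0.94). That mean differed by -0.77 from WT 1 and by -2.15 from WT 2.

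The oligoadenylate synthetases sense double-stranded RNA and activate RNase L, and the OAS-like proteins share their fold. Oasl1 read -2.50, 0.75, -1.66 and -1.73, which put WT 2 9.57-fold above WT 1. Oasl2 read -0.35, 1.93, 0.14 and -0.59, and Oas2 -1.56, -0.34, -1.55 and -1.71. WT 2 was the highest array in each of these, and the other 3 arrays lay within about 1 log2 unit of one another. Oas1a read -1.54, 0.85, -0.87 and -4.39. Its low value on knockout 2 was not well above background, and knockout 1 was at least 10.8-fold above it. Oas3 read -3.63, -2.04, -4.21 and -3.79, so the knockout readings were both below the wild-type ones, but a second Oas3 probe, not well above background on WT 2, gave a difference between genotypes of -0.11 ± 0.48 and read lower on WT 2 than on WT 1. Eif2ak2, which encodes the kinase PKR that halts translation, differed least in this group, by 1.5-fold between WT 2 and WT 1.

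ISG15 is a ubiquitin-like protein that is attached to other proteins, and Usp18 removes it and damps the type I receptor. Isg15 read -0.76, 2.24, 0.42 and 0.15, with WT 2 7.97-fold above WT 1 and both knockout arrays between them. Usp18 read -1.74, 0.50, -0.93 and -0.98, the same order of arrays as Isg15. Of the ubiquitin ligases, Trim30a read -0.05, 1.28, -0.59 and 0.52. Trim25, which ubiquitinates the RNA sensor RIG-I, and Herc6, which attaches ISG15 in the mouse, were 1.29-fold and 1.27-fold higher on WT 2 than on WT 1.

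Zbp1 senses Z-form nucleic acid and can trigger necroptosis, and it read -1.48, 1.13, -0.83 and -0.31, a 6.11-fold difference between WT 2 and WT 1. Ifih1 encodes the RNA sensor MDA5 and read -1.08, 0.39, -0.12 and -1.0. Dhx58, a regulator of these sensors, was 2.41-fold higher on WT 2 than on WT 1. Ddx58, which encodes RIG-I, read 1.1, 1.64, 0.48 and 0.98, so the knockout readings were again both below the wild-type ones. The groups overlapped on the other tested Ddx58 probe, which read -2.92, -2.34, -3.10 and -2.85 (-0.34 ± 0.31). Among the transcription factors, Irf7, which amplifies interferon alpha production, read -2.33, -0.18, -2.28 and -1.94. The other two differed less, with Stat2 2.32-fold and Irf9 1.34-fold higher on WT 2 than on WT 1.

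Of the restriction factors, Bst2, which tethers budding virus to the cell, read 2.03, 3.45, 2.55 and 2.23. Rsad2, which makes a chain-terminating nucleotide, read -0.38, 0.995, -0.07 and -0.75. Cmpk2, its genomic neighbour, supplies nucleotides to mitochondria and read -1.54, -0.41, -1.18 and -2.07. WT 2 was the highest array for these and for Samd9l, a translation repressor that was 1.65-fold higher on WT 2. Rtp4, a chaperone of membrane receptors, read 1.62, 3.30, 2.04 and 2.0, and Xaf1, Ifi35 and Ifi27l2a were 2.51-fold, 2.07-fold and 2.41-fold higher on WT 2 than on WT 1. A second Ifi27l2a probe was 8.19-fold higher on WT 2, and it gave a difference between genotypes of 1.1 ± 0.97 where the chosen probe gave 0.12 ± 0.48. Ifi44 was well above background on WT 1 alone and was not tested.

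The remaining roles include many of the best-known targets of type II interferon. The GTPases, which attack the membranes around intracellular parasites, were 1.43-fold (Gbp2), 1.73-fold (Gbp3), 1.88-fold (Igtp), 2.10-fold (Irgm1) and 2.34-fold (Iigp1) higher on WT 2 than on WT 1. The antigen processing genes Tap1, a peptide transporter, and Psmb8 and Psmb9, immunoproteasome subunits, were 1.45-fold, 1.47-fold and 1.31-fold higher, and knockout 2 rather than WT 2 was the highest array for all 3. The ADP-ribosyltransferase family members Parp9 and Parp14 were 1.57-fold and 1.68-fold higher on WT 2. Cxcl10, a chemokine for activated T cells, read -2.06, -2.28, -2.58 and -1.45 and was the gene that did not rank WT 2 above WT 1. Lgals3bp, a secreted glycoprotein, was 2.32-fold higher on WT 2. By role, the median difference between WT 2 and WT 1 was 7.75-fold for the 3 IFIT genes, 3.83-fold for the 6 genes of the OAS and PKR group, 1.88-fold for the 5 GTPases and 1.45-fold for the 3 antigen processing genes.

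**Figure D2:**
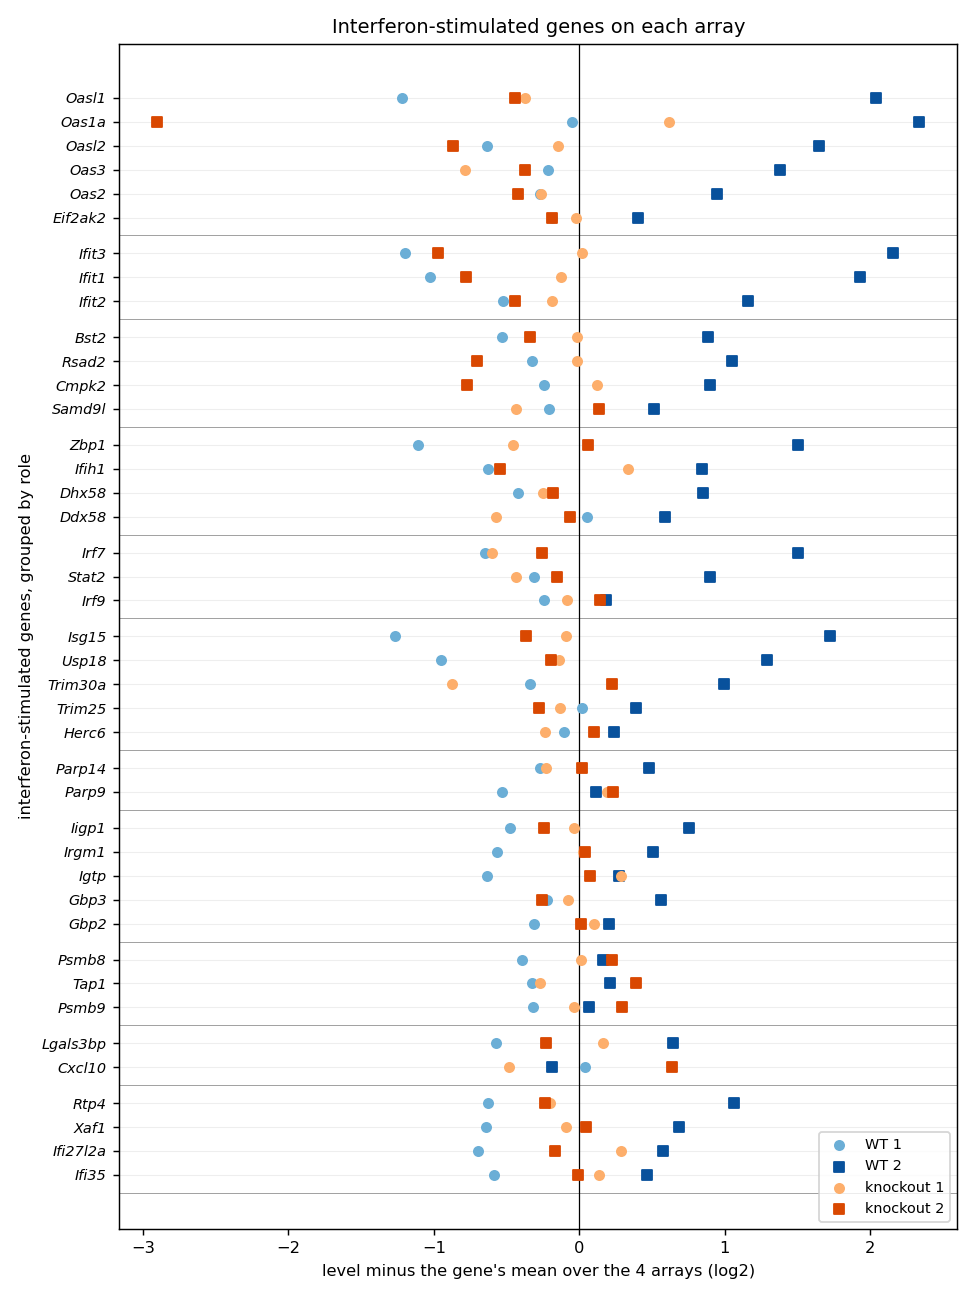
Level of each of the 41 tested genes on each array, as its difference on the log2 scale from the gene's mean over the 4 arrays, grouped by role. WT 2 is the highest array in 35 of 41 genes, and WT 1 the lowest in 27.

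WT 2 was the highest array for 35 of the 41 genes, against 23% of all tested genes, and WT 1 the lowest for 27, against 26.7%. The 6 genes with another highest array were Igtp on knockout 1 and Parp9, Tap1, Psmb8, Psmb9 and Cxcl10 on knockout 2. In 22 genes both knockout arrays lay above WT 1 and below WT 2, against 7.47% of tested genes. The knockout arrays had no common direction. Their median difference was 0.07 with knockout 1 higher, and 23 genes were higher on knockout 1 and 18 on knockout 2, where 48.6% and 51.4% of tested genes were. At least 2-fold apart were Oas1a, higher on knockout 1, and Trim30a and Cxcl10, higher on knockout 2, where 2.9% and 6.6% of tested genes lay that far apart in these directions.

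No gene of the 41 changed between genotypes at an adjusted p under 0.05 (limma, Benjamini-Hochberg over all 24183 tested probes), and 0 of the 13204 tested genes did (0%). The lowest adjusted p among the 41 was 0.94. At an unadjusted p under 0.05 none of the 41 passed in either direction, where 1.14% of tested genes were higher and 2.41% lower in the knockout. Among the 13 further tested probes of these genes, 2 passed an unadjusted p under 0.05, both lower in the knockout. These were the second Ifit2 probe and an Rsad2 probe at -1.21 ± 0.47 (limma adjusted p = 0.94). This Rsad2 probe had no overlap between genotypes and each of its 4 readings well above background, with dim knockout signals of 14.1 and 11.3. The genotypes overlapped on the chosen Rsad2 probe (-0.72 ± 0.53) and on its other tested probe (-0.82 ± 0.54). The median difference, knockout minus wild type, was -0.34, against -0.01 over all tested genes, and 30 differences were below 0 and 11 above, where 50.7% of tested genes lay below. The standard error was 0.46 in the median gene, against 0.28 over all tested genes. The 41 differences ran from -2.29 ± 1.33 (Oas1a, whose knockout 2 reading was not well above background) to 0.42 ± 0.31 (Parp9).

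By the chosen probes, groups overlapped in 37 of the 41 genes. Without overlap, the knockout was lower for Oas3 (-1.17 ± 0.56), Ddx58 (-0.64 ± 0.33) and Trim25 (-0.41 ± 0.26), which is 3 of 41 where 17.7% of tested genes were so placed. Both lay above for Parp9, where 17.8% of tested genes were. The medians by role ran from -0.92 for the OAS and PKR group and -0.91 for the IFIT genes to 0.23 for antigen processing. Above 0 were 0 of 3 IFIT genes and 3 of 3 antigen processing genes, where 50.7% of tested genes lay below 0. Each antigen processing difference was smaller than its standard error (Tap1 0.12 ± 0.35, Psmb8 0.23 ± 0.30, Psmb9 0.25 ± 0.28). Tap1 turned to -0.24 under another background correction. The Oas1, Ifit, Gbp and Trim30 families hold similar genes, and cross-hybridisation between their probes was not tested.

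The direction of the comparison turned on which wild-type array was used. Against WT 1 alone the knockout mean was higher in 34 of the 41 genes, with a median of 0.33, where 49.6% of tested genes were higher. Against WT 2 alone it was lower in 38, with a median of -0.91, where 51.2% were lower. The knockout mean of Isg15 differed by 1.04 from WT 1 and by -1.96 from WT 2. A fit with 1 wild-type array assumes that it varies like the knockout arrays, so its p-values are not given.

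**Figure D3:**
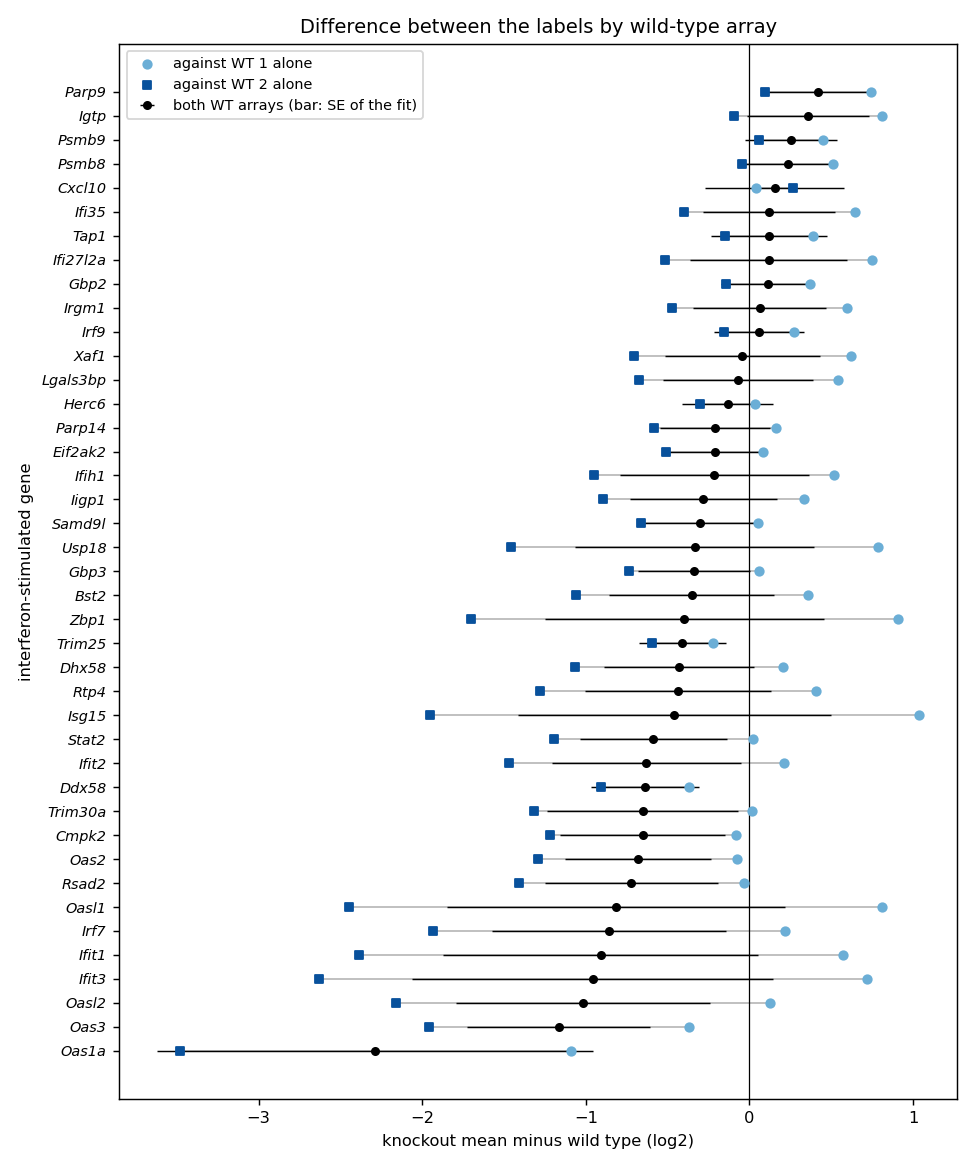
Difference between the knockout mean and the wild type on the log2 scale for each of the 41 genes, with both wild-type arrays (black, bar the standard error of the fit), WT 1 alone (light circles) and WT 2 alone (dark squares). The median moves from 0.33 against WT 1 to -0.91 against WT 2, and Cxcl10 is the gene whose order of the 2 is turned.

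In the layers of the pathway above these genes, the median difference between WT 2 and WT 1 was smaller, and no gene passed at an adjusted p under 0.05. Of 14 listed interferons, 11 had a probe and 3 were tested, of which 0 were well above background on all 4 arrays. Among those not tested, the interferon beta gene Ifnb1 was well above background on no array. The interferon alpha gene Ifna5 was so on WT 2 and knockout 2 alone, and the type III interferon gene Ifnl3 on WT 1 alone. Ifng, type II interferon, read -3.59, -3.37, -3.87 and -3.04, with the WT 2 reading not well above background and a difference between genotypes of 0.02 ± 0.35 (limma, adjusted p = 0.998). Ifnz, a type I interferon, had a fitted difference of -0.91 ± 0.25 (limma, adjusted p = 0.94) at an unadjusted p under 0.05, but its knockout 2 reading was not well above background. The 6 receptor chains had a median difference of 0.03 between WT 2 and WT 1. Ifnlr1, the type III interferon receptor chain, was the only one at an unadjusted p under 0.05 (-0.65 ± 0.25, limma adjusted p = 0.94). Both Ifnlr1 and Ifnz lie on chromosome 4, as does the targeted gene Stmn1, and the part of this position in their differences was not tested. The type I receptor chains Ifnar1 and Ifnar2 differed between genotypes by 0.18 ± 0.28 and 0.09 ± 0.24.

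Among 10 genes of signal transduction, none reached an unadjusted p under 0.05 and 8 were higher on WT 2 than on WT 1. The median difference over all 10 was 0.12. Irf1, a type II target and transcription factor, read 3.23, 3.43, 3.01 and 3.20. Its genotype difference was -0.23 ± 0.25, smaller than its standard error. The largest genotype differences in this layer were those of the kinases Tyk2 (0.56 ± 0.33) and Jak2 (0.51 ± 0.27) and the inhibitor Socs1 (0.47 ± 0.45). The 13 genes that sense infection and induce interferon had a median of 0.30, with none at an unadjusted p under 0.05. Of these, the RNA receptor Tlr7 was 1.88-fold higher on WT 2 than on WT 1.

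A further list of 58 interferon-stimulated genes had 51 tested members, and none passed at an adjusted p under 0.05. Of the 51, 48 (94.1%) were higher on WT 2 than on WT 1 and 10 (19.6%) at least 2-fold, with a median of 0.56. The genotype difference had a median of -0.07. WT 2 was the highest array for 25 of the 51. Ifi211 and Ifi204, members of a family of DNA-binding proteins, were 3.82-fold and 3.29-fold higher on WT 2 than on WT 1. Ccl5, a chemokine of T cells, was 10.3-fold higher on knockout 2 than on knockout 1. Ifit3b, a near copy of Ifit3 whose signal may be shared with it, was the only gene of this list at an unadjusted p under 0.05, and neither knockout array read well above background, with a level at least 1.75-fold lower (limma adjusted p = 0.94).

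**Figure D4:**
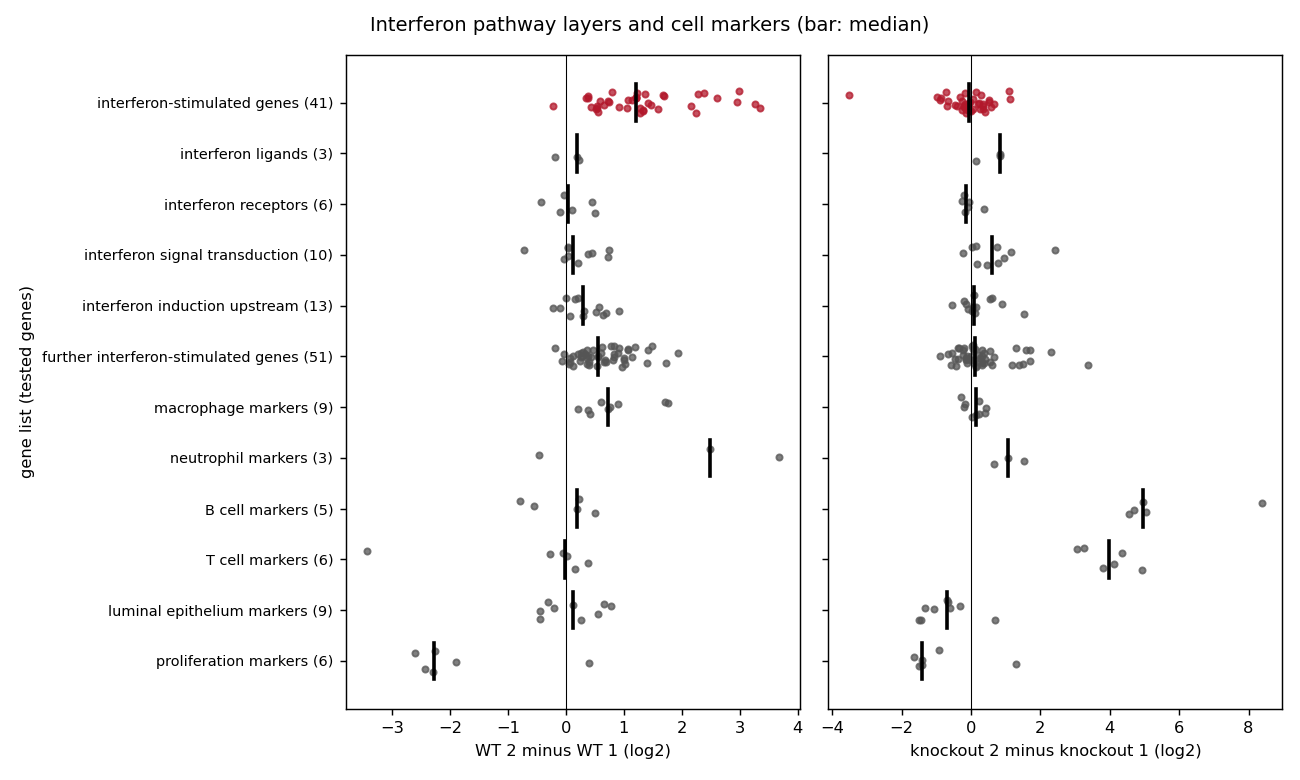
Difference between WT 2 and WT 1 (left) and between knockout 2 and knockout 1 (right) on the log2 scale for the tested genes of each pathway layer and of 6 marker lists, with a bar at the median. The interferon-stimulated genes have a median of 1.22 on the left and -0.07 on the right, and the B and T cell markers have medians of 4.96 and 3.97 on the right.

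Markers of some other cells were also higher on WT 2. All 9 macrophage markers with a probe were higher on WT 2 than on WT 1, and their summed level was 28.4 and 49.8 in the wild type and 24.8 and 28.7 in the knockout, in units of the array's 75th percentile. All 7 adipocyte markers were higher on WT 2 than on WT 1 as well, by a median of 0.58 on the log2 scale, with sums of 591 and 808 in the wild type and 537 and 660 in the knockout. Of 4 neutrophil markers, S100a8 and S100a9 were 5.61-fold and 12.9-fold higher on WT 2 than on WT 1, and S100a9 held most of the summed level. Cxcr2, not well above background on WT 2, read -2.93 on WT 1 and -3.40 on WT 2. Only 1 of the 3 tested neutrophil markers was well above background on all 4 arrays. The summed neutrophil level ran from 0.617 to 5.62 in the wild type and from 1.45 to 3.99 in the knockout. Csf3r, a defining neutrophil receptor, was well above background on no array. The luminal epithelial sum was 102 on WT 1 and 139 on WT 2, with 5 of 9 markers higher on WT 2. The B cell, T cell and proliferation sums did not follow this order. B cell markers summed to 0.986 and 0.873 in the wild type and to 0.699 and 26.2 in the knockout, and T cell markers to 0.768 and 0.613 against 0.748 and 13.8. Plasmacytoid dendritic cells are a main source of type I interferon, and none of 4 of their markers was well above background on WT 2 or knockout 1. Their summed level was 0.218 and 0.242 in the wild type and 0.0948 and 1.69 in the knockout. The proliferation list summed to 25.7 and 5.31 in the wild type and 17.4 and 7.03 in the knockout. The part of these cells in the differences between arrays was not tested, and in bulk tissue more cells of a type and more RNA per cell cannot be told apart.

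The difference between the wild-type arrays was set beside the promoter matches as a description, with no test. The 17 tested genes with a core had a median WT 1 minus WT 2 of -1.33, and 11 were at least 2-fold higher on WT 2. The 15 without a core had a median of -1.05, and 8 were at least 2-fold higher. Cxcl10, which holds the core shown above, was not higher on WT 2, while Oasl1, 9.57-fold higher on WT 2, had no match in the window. Further probes of the same genes gave the same order in 12 of 13 tested cases, over 11 genes, the exception being the second Oas3 probe.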

How the data were processed

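The authors deposited scanner intensity files for 4 one-colour arrays and a table of log2 values. Agilent Feature Extraction had subtracted the background of each processed signal used here. Its version is 11.5.1.1 in the file headers and 10.7.3.1 in the submitters' processing notes. The deposited log2 table, ascribed to GeneSpring in the series' design text with steps not stated, matched quantile-normalized values centred on each probe's median (column medians -0.018, 0.0183, 0.00626 and -0.0096) and served as an alternative.

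A level is the log2 processed signal after subtraction of the array's 75th percentile. Control and outlier-flagged spots were left out, and replicate spots were averaged. Probes were named through RefSeq accessions (27816 named, 13358 not), and 24183 of 41174 were tested with limma 3.58.1 in R 4.3.3, with Benjamini-Hochberg adjustment over all of them. With 2 arrays a genotype, 2 residual degrees of freedom remained, and the number of arrays limits the precision. The script was tested on simulated data. A fold against readings not well above background uses the higher of the array's lowest signal well above background and the probe's own reading. It is a lower bound, except for the second Ifit2 probe, where the readings themselves were used.

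Members and lists were chosen with earlier results of these data known. All 45 genes are named. Values by array are printed for those with the largest differences between the wild-type arrays or between the genotypes, and for Ddx58, Trim30a and Cxcl10, chosen after their values were seen. Of the pathway genes, those at an unadjusted p under 0.05 or with the largest genotype differences are named, with Irf1, Ifnb1 and Ifng. Another gene under this rule is not reported here. Ifna5, Ifnl3, Ifi211, Ifi204, S100a8, S100a9, Cxcr2 and Csf3r were named after their values were seen. Alternatives covered normalization, background correction, filters, probe choice, the deposited table, an intensity trend, a replicate block and leaving out each array.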

Additional observations from a re-analysis of the deposited data

How the results depend on the processing

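None of the 41 genes passed an adjusted p under 0.05 under any setting with all arrays kept. The median genotype difference, -0.34, stayed below 0 with all arrays kept and ran from -0.91 to 0.33 with an array left out, above 0 without WT 2. The count at an unadjusted p under 0.05, 0, was 1 with no filter (Ifi44), 1 with the replicate block (Oas3) and 0 to 16 with an array left out (16 without WT 1). With an array left out, its genotype has 1 array and no spread of its own, so those counts cannot show a genotype difference. The 16 came from comparison with WT 2 alone, the array that read above WT 1 in 40 of the 41 genes. The differences between same-genotype arrays were weakly correlated between the genotypes (correlation 0.077 across 13204 genes). With 2 pairs this cannot decide whether replicate numbers pair the samples. The median WT 1 minus WT 2 ran from -1.36 to -0.94, with 40 or 41 genes higher on WT 2 and 15 (normexp) to 27 at least 2-fold. The knockout 1 minus knockout 2 median, 0.07, turned to -0.024 with normexp, run on the spots' median signal, a setting chosen after seeing the data, and was 0.60 with median centring. Median centring moved the median of all genes to 0.17 and the count of all genes called from 0 to 5. Genes turned sign with median centring (Herc6 0.041, Lgals3bp 0.11, Xaf1 0.13), normexp (Tap1 -0.24, Cxcl10 -0.062, Lgals3bp 0.039) and averaged probes (Irgm1 -0.0027). The cause was not tested. Counts of non-overlapping genes (4, from 3 to 6) were not recomputed with an array left out. With each array left out in turn, 32 genes turned sign at some array, and their genotype differences ran over these ranges: Oasl1 -2.45 to 0.81, Oasl2 -2.16 to 0.12, Eif2ak2 -0.51 to 0.082, Ifit1 -2.38 to 0.57, Ifit2 -1.47 to 0.21, Ifit3 -2.63 to 0.72, Bst2 -1.06 to 0.36, Samd9l -0.67 to 0.055, Ifih1 -0.95 to 0.52, Dhx58 -1.07 to 0.20, Zbp1 -1.70 to 0.91, Irf7 -1.93 to 0.22, Irf9 -0.15 to 0.27, Stat2 -1.19 to 0.020, Isg15 -1.96 to 1.04, Usp18 -1.46 to 0.79, Herc6 -0.30 to 0.037, Trim30a -1.32 to 0.016, Parp14 -0.58 to 0.16, Gbp2 -0.14 to 0.37, Gbp3 -0.73 to 0.056, Igtp -0.095 to 0.81, Irgm1 -0.47 to 0.60, Iigp1 -0.90 to 0.33, Tap1 -0.21 to 0.45, Psmb8 -0.045 to 0.51, Cxcl10 -0.41 to 0.72, Lgals3bp -0.67 to 0.54, Ifi27l2a -0.52 to 0.75, Ifi35 -0.40 to 0.64, Rtp4 -1.28 to 0.41 and Xaf1 -0.71 to 0.62.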
